A study of Homo sapiens with 6 samples.

Results

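The integrated stress response was examined as a list of 39 genes: the eIF2 kinases, eIF2 alpha and the eIF2B subunits, the subunits that direct the eIF2 phosphatase, ATF4 with its partner transcription factors, and genes that ATF4 is known to control. Each gene was represented by the probe set that carried its symbol alone and had the highest mean log2 signal over all 6 arrays, which gave 38 genes out of 19775 with such a probe set. All 38 passed the brightness filter, as did 12216 genes in all. GPT2, the remaining listed gene, was not analysed here.

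Messenger RNA was measured on Affymetrix U133 Plus 2.0 arrays in OVCA432, an established human cell line that derives from an ovarian carcinoma of the high grade serous type. Cells of the MFAP5 group received 200 ng/mL of recombinant human MFAP5, a glycoprotein that cells secrete and that sits on the microfibrils of the extracellular matrix, and cells of the control group received the solvent. Both groups were kept in serum-free medium for 24 h before the treatment and for the 48 h until RNA was taken, so every sample came from serum-deprived cells. There were 3 independently prepared samples per group, each on its own array, and a single cell line.

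In the integrated stress response, 4 kinases that sense different kinds of stress phosphorylate the alpha subunit of the translation initiation factor eIF2. Phosphorylated eIF2 blocks eIF2B, the exchange factor that recharges eIF2 with GTP, so general protein synthesis falls while the mRNA of the transcription factor ATF4, which has upstream reading frames, is translated more. ATF4 and partner proteins then switch on genes for amino acid supply, redox balance and cell fate, and one of these, PPP1R15A, returns a phosphatase to eIF2. Arrays measure mRNA abundance and carry no information on phosphorylation or on the amount of protein.

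The deposited values were MAS5 signals, with a 2% trimmed mean of 500.07 on every array. Across probe sets, 2 arrays from the same group had log2 signals with a correlation of 0.984 to 0.988, and an MFAP5 array set against a control array one of 0.967 to 0.971; this is given as a description, since probe sets are not independent. The log2 ratio of 3' to 5' GAPDH control probe sets, a measure of RNA integrity, was -0.101 ± 0.034 on the MFAP5 arrays and -0.131 ± 0.071 on the control arrays (SD, n = 3 each, exact permutation p = 0.5), and that of ACTB was 0.282 ± 0.062 on the MFAP5 arrays and 0.296 ± 0.056 on the control arrays (exact permutation p = 0.6). With 3 arrays against 3 this test cannot give a p below 0.1. All 8 epithelial and ovarian carcinoma markers, among them EPCAM, KRT18 and PAX8, exceeded the brightest of 27 Bacillus control probe sets on all 6 arrays. Of these, MUC16, the gene of the antigen CA125, was 3.62-fold higher with MFAP5 (limma adjusted p = 6.44e-07), PAX8 was 1.45-fold higher (adjusted p = 0.000443), EPCAM was 1.24-fold higher (adjusted p = 0.0489, a call lost in 10 of 17 alternatives) and WT1 was 1.33-fold lower (adjusted p = 0.00259). The summed signal of 9 fibroblast, endothelial and leukocyte markers was 386 to 568 on the MFAP5 arrays and 397 to 516 on the control arrays. Of the 9, 7 lay below the brightness filter, a stricter limit than the Bacillus control probe sets. MFAP5 replicates 1, 2 and 3 had 5, 6 and 5 of these markers above the brightest Bacillus control probe set. Control replicates 1, 2 and 3 had 2, 7 and 4.

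With MFAP5, mRNA of most transcription factors and stress effectors of this response was higher, led by GDF15, NUPR1, CHAC1, ATF3 and GADD45A, while mRNA of 3 of the 5 eIF2B subunits and of DDIT4 was lower. Of the 38 genes, 19 were higher with MFAP5, 6 were lower and 13 were not called (limma, adjusted p below 0.05 over all 27307 probe sets tested). This is 50% higher and 65.8% in either direction in the list, where over all 12216 genes 14.6% were called higher, 15.3% lower and 29.9% in either direction (25.2% of all probe sets). This list and the other lists were chosen with earlier results of these data known, so their shares are given as a description. The median log2 fold change, MFAP5 over control, was 0.26 in the list and -0.0084 over all genes. A log2 fold change of 1 or more was called for 5 of the 38 genes and for 2.79% of all genes. When each array was centred on its median signal, the list had 14 genes higher and 9 lower of 38, where 8.43% of all probe sets were higher and 21.9% lower; this centring moved the median log2 fold change of the tested probe sets by -0.14. The 3 MFAP5 and the 3 control arrays did not overlap for 20 genes of the list in the higher and 7 in the lower direction, where 22.3% of all genes did so in the higher and 23.6% in the lower direction. Each array measured a whole cell population, so more RNA per cell and a larger share of cells with that RNA cannot be told apart.

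**Figure D1:**
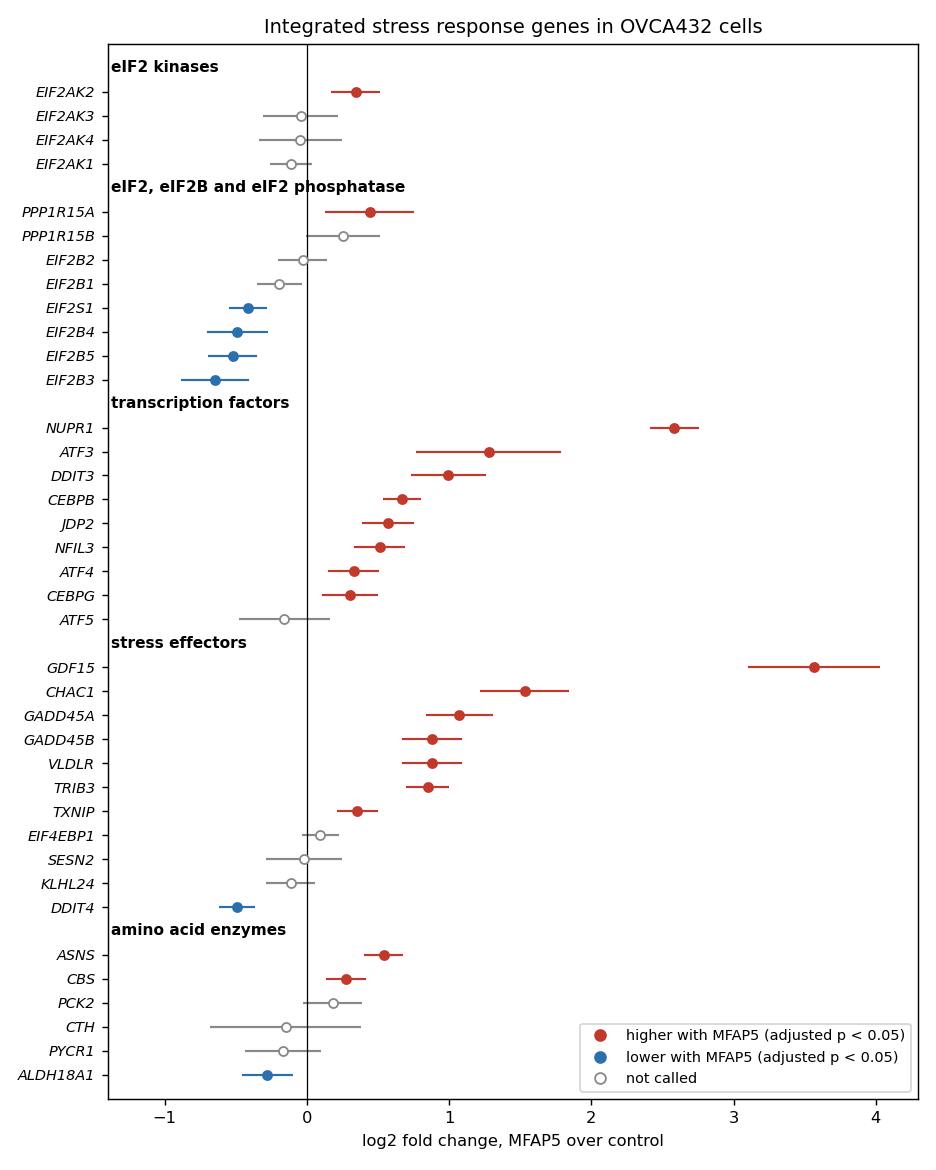
Log2 fold change, MFAP5 over control, of the 38 genes by role, with 95% intervals from the limma fit of 3 MFAP5 and 3 control arrays. Red points are higher with MFAP5, blue points lower and open points not called; GDF15 and NUPR1 lie farthest to the right and EIF2B3 farthest to the left.

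Of the 4 eIF2 kinases, 1 was higher with MFAP5 and 3 were not called. EIF2AK2, which encodes the kinase PKR that is activated by double-stranded RNA, had a signal of 2614, 2675 and 2465 on the MFAP5 arrays, against 1873, 2101 and 2152 on the control arrays, and the groups did not overlap. It was 1.27-fold higher with MFAP5 on its brightest probe set, by 0.34 ± 0.076 on the log2 scale (SE, limma adjusted p = 0.00891). Neither of its 2 other tested probe sets was called, with log2 fold changes of -0.19 and -0.0002. The call of EIF2AK2 was lost with arrays centred on their medians (limma adjusted p = 0.0798) or on hybridisation controls (0.23) and when its probe sets were averaged (0.766). EIF2AK3, the endoplasmic reticulum kinase PERK, was not called, with a 95% interval of the log2 fold change from -0.31 to 0.22. EIF2AK4, the kinase GCN2 that senses uncharged tRNA, had an interval from -0.34 to 0.25, and EIF2AK1, the heme-regulated kinase HRI, one from -0.26 to 0.034. With arrays centred on their medians EIF2AK1 was called lower (log2 fold change -0.25, limma adjusted p = 0.00973), so the kinases then had 0 higher and 1 lower. With 1 of 4 kinases called, their share was close to the 29.9% of all genes.

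Messenger RNA of the eIF2B subunits was lower in part, where 15.3% of all genes were called lower. EIF2B3, which encodes the gamma subunit, had a signal of 1452, 1078 and 1182 on the MFAP5 arrays, against 1998, 1978 and 1796 on the control arrays. It was 1.56-fold lower with MFAP5 (log2 fold change -0.65 ± 0.11, SE, limma adjusted p = 0.00195), and every MFAP5 array lay below every control array. EIF2B5, the catalytic epsilon subunit, had a signal of 1088, 1059.5 and 998 on the MFAP5 arrays, against 1544, 1539.7 and 1434 on the control arrays. It was 1.44-fold lower (limma adjusted p = 0.000941), while its other tested probe set had a log2 fold change of -0.27 and was not called. EIF2B4, the delta subunit, had a signal of 3822, 3399.9 and 3231 on the MFAP5 arrays, against 5472, 4905 and 4325 on the control arrays. It was 1.4-fold lower (limma adjusted p = 0.00443), and its other tested probe set was called lower too, with a log2 fold change of -0.34. The alpha and beta subunits, EIF2B1 and EIF2B2, were not called, with unadjusted 95% intervals from -0.35 to -0.038 and from -0.20 to 0.14. EIF2B1 had all 3 MFAP5 signals below the control signals, and it was called lower when only probe sets over the 75% quantile of brightness were tested (limma adjusted p = 0.0472), and with arrays centred on their medians (0.00937) or on the medians of the tested probe sets (0.032). Of all probe sets, 20.7%, 21.9% and 14.6% were lower in these settings, in that order.

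Probe sets of EIF2S1, which encodes the alpha subunit that the kinases phosphorylate, went in opposite directions. The brightest had a signal of 3463, 3329 and 3441 on the MFAP5 arrays, against 4577, 4625 and 4449.6 on the control arrays, 1.33-fold lower with MFAP5 (limma adjusted p = 0.000752). A dimmer one had a signal of 1562, 1763 and 1680.3 on the MFAP5 arrays, against 1276, 1319 and 1275 on the control arrays, and was called higher at 0.37 ± 0.075 on the log2 scale (SE, limma adjusted p = 0.00574). Its remaining probe set had overlapping groups and a log2 fold change of 0.31 (limma adjusted p = 0.268). The mean of all EIF2S1 probe sets had a log2 fold change of 0.088 and was not called (limma adjusted p = 0.495), so the direction of EIF2S1 mRNA depends on the probe set read. EIF2S1 was the only one of the 38 genes with tested probe sets called in opposite directions.

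**Figure D2:**
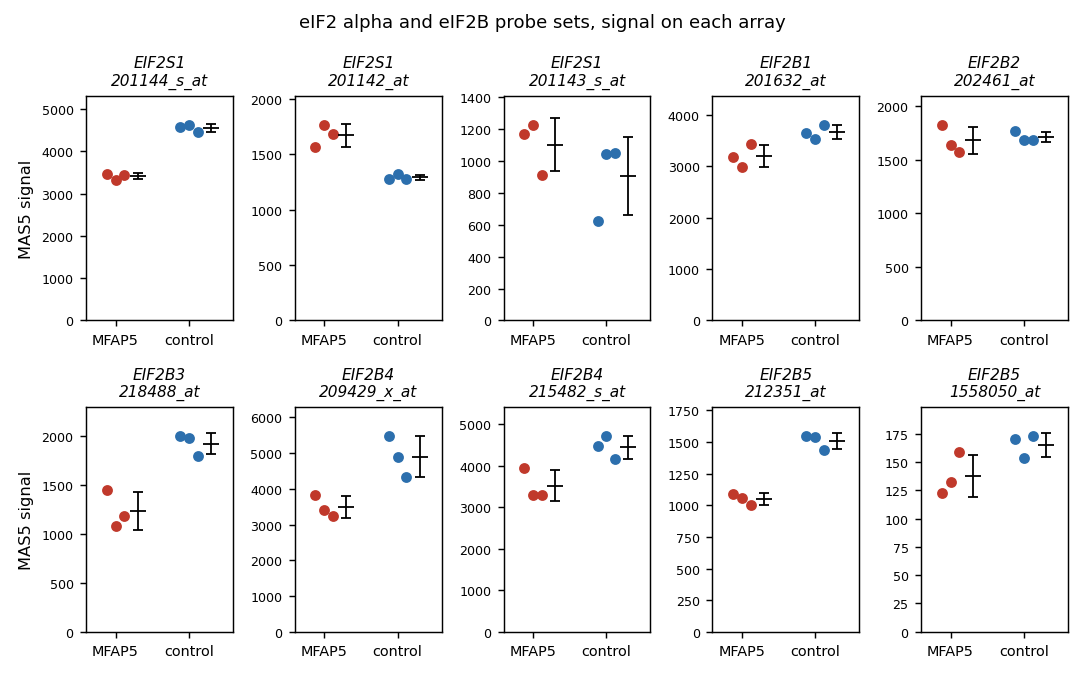
MAS5 signal on each array for the tested probe sets of EIF2S1 and of the eIF2B subunits, MFAP5 arrays in red and control arrays in blue, with mean and SD in black (n = 3 each). EIF2S1 is lower with MFAP5 on the brightest probe set and higher on a dimmer one, and EIF2B3, both EIF2B4 probe sets and the brighter EIF2B5 probe set show separate groups.

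The inducible and the constitutive phosphatase subunits, PPP1R15A (GADD34) and PPP1R15B (CReP), are the subunits that bring the phosphatase to eIF2. PPP1R15A had a signal of 466, 413 and 425 on the MFAP5 arrays, against 350.1, 354 and 264 on the control arrays. It was 1.36-fold higher (log2 fold change 0.44 ± 0.14, SE, limma adjusted p = 0.045), close to the threshold, and this call was lost in 12 of 18 alternatives. Those 12 include each fit that left out 1 array, where its log2 fold change was 0.30 to 0.51 and the limma adjusted p 0.0531 to 0.119. Its other probe set had a signal of 259, 235 and 203 on the MFAP5 arrays, against 135, 122 and 139 on the control arrays, and was higher by 0.81 ± 0.17 on the log2 scale (SE, limma adjusted p = 0.00574). PPP1R15B was not called, with signals of 1332, 1594 and 1796 on the MFAP5 arrays, against 1265, 1209.8 and 1473 on the control arrays, and had a 95% interval from -0.0074 to 0.51. It was called higher without MFAP5 replicate 1 (log2 fold change 0.37, limma adjusted p = 0.035).

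Of the 9 transcription factors, 8 were higher with MFAP5, 1 was not called and none was lower, also at an unadjusted limma p below 0.05. Of all 12216 genes, 14.6% were called higher and 15.3% lower. At the unadjusted threshold, 2515 of all genes were higher and 2666 lower. ATF4 had a signal of 17463, 17106 and 15204 on the MFAP5 arrays, against 13837, 13900.3 and 11897 on the control arrays. Every MFAP5 array lay above every control array, and the difference was 1.26-fold (log2 fold change 0.33 ± 0.081, SE, limma adjusted p = 0.0138). The ATF4 call was lost without MFAP5 replicate 2 (log2 fold change 0.31, limma adjusted p = 0.0651), without an intensity trend (0.0761), and with arrays centred on their medians (0.0644) or on hybridisation controls (0.114). DDIT3, which encodes CHOP, a factor linked to cell death under prolonged stress, had a signal of 689, 645 and 601 on the MFAP5 arrays, against 360.2, 322 and 291 on the control arrays. It was 1.99-fold higher (log2 fold change 0.995 ± 0.12, SE, limma adjusted p = 0.000261), a larger fold than that of ATF4 in these arrays. ATF3, an inducible bZIP factor, had a signal of 205, 220.1 and 197 on the MFAP5 arrays, against 70.6, 73.8 and 119.8 on the control arrays. It was 2.42-fold higher (limma adjusted p = 0.00287), with control replicate 3 above the other controls and still below all MFAP5 arrays. The other tested ATF3 probe set had a log2 fold change of 0.48 and was not called, nor was the mean of all ATF3 probe sets (limma adjusted p = 0.0834).

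NUPR1, a small chromatin-associated stress protein, had the largest change among the factors. Its signal was 3755, 3578 and 3906 on the MFAP5 arrays, against 670.2, 603 and 605 on the control arrays, a 5.99-fold difference with little spread inside either group (log2 fold change 2.58 ± 0.077, SE, limma adjusted p = 5.91e-08), and it ranked 12 of 12216 genes from the highest log2 fold change. CEBPB, a bZIP partner of ATF4 and CHOP, had a signal of 12522, 12716 and 12218 on the MFAP5 arrays, against 7465, 8017 and 8096 on the control arrays. It was 1.59-fold higher (limma adjusted p = 4.05e-05). CEBPG, another bZIP factor that pairs with ATF4, had a signal of 1478, 1629.7 and 1679 on the MFAP5 arrays, against 1422, 1269 and 1196 on the control arrays. It was 1.23-fold higher (limma adjusted p = 0.0321). The CEBPG call was lost in 9 of 19 alternatives, among them the fits without MFAP5 replicate 2 (adjusted p = 0.108) or 3 (0.103) and without control replicate 2 (0.0912) or 3 (0.0827), while its other probe set was called higher in the full fit with a log2 fold change of 0.50 (adjusted p = 0.00205).

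JDP2, a bZIP repressor of AP-1 sites, had a signal of 1282, 1379 and 1389 on the MFAP5 arrays, against 925, 954 and 855 on the control arrays. It was 1.48-fold higher (limma adjusted p = 0.000812), and its other tested probe set was called higher with a log2 fold change of 1.02. NFIL3, a bZIP repressor of the circadian and immune systems, had a signal of 1900.3, 1688 and 1619 on the MFAP5 arrays, against 1242, 1181 and 1226 on the control arrays. The difference was 1.42-fold (limma adjusted p = 0.00151), and the groups did not overlap. ATF5, a bZIP factor tied to mitochondrial stress, was not called on its brightest probe set, with signals of 334, 271 and 334 on the MFAP5 arrays, against 367, 303 and 379 on the control arrays. Its 95% interval ran from -0.48 to 0.16, and its 2 other tested probe sets had log2 fold changes of 0.33 and 0.59, neither called. The mean of all 4 ATF5 probe sets had a log2 fold change of 0.88 (limma adjusted p = 0.016), but it includes 1 probe set too dim to be tested, which was above the brightest Bacillus control probe set on 0 of 3 control arrays, and no direction is given for ATF5.

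**Figure D3:**
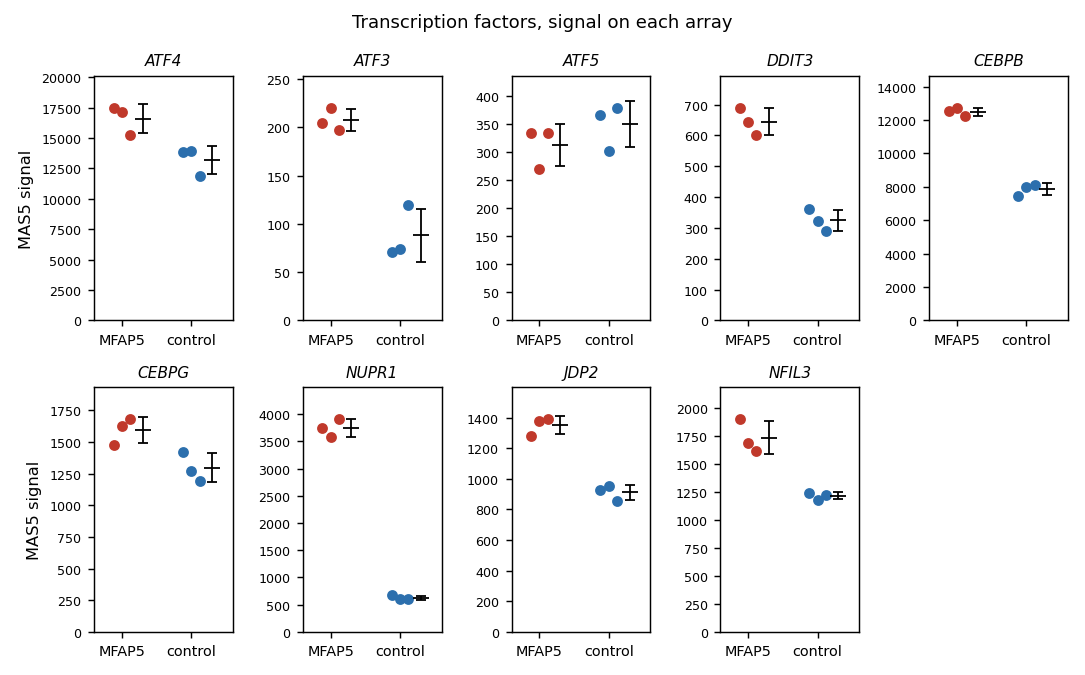
MAS5 signal of the 9 transcription factors on each array, MFAP5 arrays in red and control arrays in blue, with mean and SD in black (n = 3 each). The groups separate for 8 factors, most widely for NUPR1, and overlap for ATF5; over all genes, 22.3% had separate groups in the higher direction.

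Of the 11 stress effectors, 7 were higher with MFAP5, 1 was lower and 3 were not called. Among all 12216 genes, 14.6% were higher and 15.3% lower. GDF15, a secreted cytokine of the TGF-beta family that rises in stressed cells, had a signal of 1293, 1077 and 905 on the MFAP5 arrays, against 101, 113 and 66.6 on the control arrays. It was 11.8-fold higher (log2 fold change 3.57 ± 0.21, SE, limma adjusted p = 2.63e-06) and ranked 2 of 12216 genes from the highest log2 fold change. This value rests on 1 probe set. The other GDF15 probe sets were too dim to be tested and had overlapping groups. Their mean signals were 54.3 and 18.9 with MFAP5, against 33.3 and 12.1 in controls. CHAC1, which degrades glutathione, had a signal of 576, 586 and 525 on the MFAP5 arrays, against 211, 213 and 163 on the control arrays. It was 2.89-fold higher (limma adjusted p = 5.15e-05). TRIB3, a pseudokinase that binds AKT and ATF4, had a signal of 3118, 2994 and 2909 on the MFAP5 arrays, against 1749.7, 1639 and 1621 on the control arrays. It was 1.8-fold higher (limma adjusted p = 2.08e-05), and its other tested probe set was called higher with a log2 fold change of 0.83. The 3 MFAP5 arrays were the highest of the 6 for each of these genes, as they were for 22.3% of all genes.

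GADD45A, which slows the cell cycle after damage, had a signal of 5940.2, 6726 and 7904 on the MFAP5 arrays, against 3021, 3125 and 3602 on the control arrays. It was 2.1-fold higher (limma adjusted p = 7.76e-05). Its relative GADD45B had a signal of 785, 831 and 906 on the MFAP5 arrays, against 463, 450.1 and 455 on the control arrays. It was 1.84-fold higher (limma adjusted p = 0.000147), 2 of its 3 other tested probe sets were called higher, and the remaining one was not (log2 fold change 0.26). VLDLR, a lipoprotein receptor, had a signal of 903, 1013 and 951 on the MFAP5 arrays, against 498, 509 and 552 on the control arrays, a 1.84-fold difference (limma adjusted p = 0.000127). TXNIP, which binds thioredoxin and limits glucose uptake, had a signal of 10428, 10074 and 10001 on the MFAP5 arrays, against 8317, 8240.0 and 7321 on the control arrays. It was 1.28-fold higher (limma adjusted p = 0.00352), both of its other probe sets were called higher, and the call was lost with arrays centred on hybridisation controls (adjusted p = 0.098).

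DDIT4, which encodes REDD1, an inhibitor of the growth kinase complex mTORC1, went the other way. Its signal was 4041, 3910.0 and 3854 on the MFAP5 arrays, against 5549, 5437 and 5616 on the control arrays, with all MFAP5 arrays below all control arrays, and it was 1.41-fold lower (log2 fold change -0.49 ± 0.058, SE, limma adjusted p = 0.000246). SESN2, a sestrin that also restrains mTORC1, was not called, with a 95% interval from -0.29 to 0.25, and its other tested probe set had a log2 fold change of 0.33 (limma adjusted p = 0.0705). EIF4EBP1, the inhibitor of the cap-binding protein eIF4E, had an interval from -0.036 to 0.22. KLHL24, a ubiquitin ligase adaptor, had one from -0.28 to 0.059, and its 4 other tested probe sets had log2 fold changes from -0.20 to 0.37, none called. With arrays centred on their medians KLHL24 was called lower (log2 fold change -0.25, limma adjusted p = 0.0486).

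**Figure D4:**
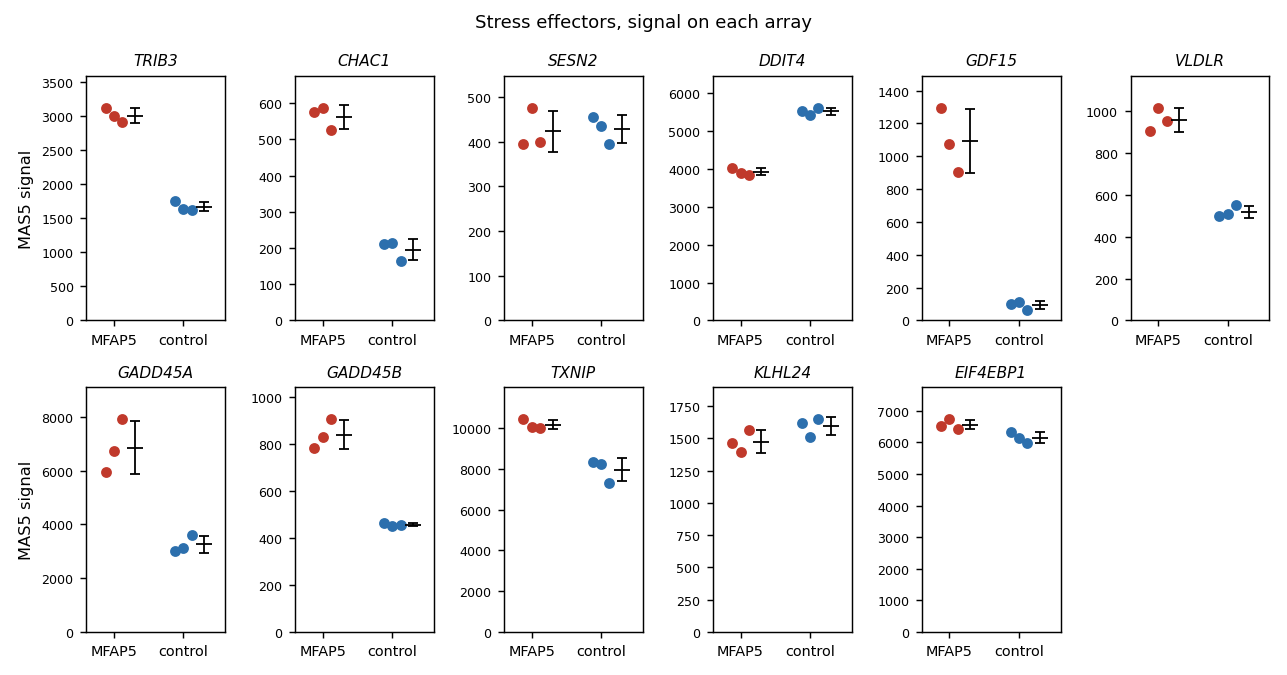
MAS5 signal of the 11 stress effectors on each array, MFAP5 arrays in red and control arrays in blue, with mean and SD in black (n = 3 each). DDIT4 is the effector with all MFAP5 signals below the control signals, and GDF15 shows the widest separation.

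The amino acid enzymes were mixed, with 2 of 6 higher, 1 lower and 3 not called, where 14.6% of all genes were higher and 15.3% lower. ASNS, asparagine synthetase, had a signal of 5195, 4997 and 4987 on the MFAP5 arrays, against 3592, 3517 and 3323 on the control arrays. It was 1.46-fold higher (log2 fold change 0.54 ± 0.062, SE, limma adjusted p = 0.000198), and the call was lost when it was averaged with its other probe set, which was below the brightest Bacillus control probe set on all 6 arrays (adjusted p = 0.0956). CBS, which makes cystathionine from homocysteine, had a signal of 2867, 3085 and 2895 on the MFAP5 arrays, against 2470.1, 2425 and 2412 on the control arrays. It was 1.21-fold higher (limma adjusted p = 0.0109), but not without MFAP5 replicate 2 (log2 fold change 0.24, adjusted p = 0.0642) and in 5 other alternatives. Its 2 other tested probe sets had overlapping groups and log2 fold changes of 0.27 and 0.23, neither called. ALDH18A1, the first enzyme of proline synthesis from glutamate, had a signal of 2000.0, 2135 and 2276 on the MFAP5 arrays, against 2661, 2371 and 2744 on the control arrays. It was 1.21-fold lower (limma adjusted p = 0.0305). That call was lost in 7 of 19 alternatives, among them the fits without MFAP5 replicate 1 (adjusted p = 0.0861) or 2 (0.0903) and without control replicate 1 (0.0955) or 3 (0.0744). The other tested ALDH18A1 probe set had overlapping groups and a log2 fold change of -0.36, not called (limma adjusted p = 0.0656).

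PYCR1, the last enzyme of proline synthesis, was not called, with a 95% interval from -0.44 to 0.1. PCK2, the mitochondrial phosphoenolpyruvate carboxykinase, had an interval from -0.028 to 0.39. CTH, which makes cysteine from cystathionine, had signals of 678, 1343 and 1347 on the MFAP5 arrays, against 1064, 1075 and 1466 on the control arrays. MFAP5 replicate 1 lay apart from the other 2 MFAP5 arrays, and the interval of CTH was the widest of the 38 genes, from -0.68 to 0.38. On the other tested CTH probe set, signals were 693.4, 693.1 and 686 on the MFAP5 arrays, against 586, 627 and 597 on the control arrays. There the groups did not overlap. The log2 fold change was 0.196 ± 0.088 (SE), not called (limma adjusted p = 0.136).

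ATF4 binds DNA with a C/EBP partner at a composite site, the C/EBP-ATF response element (CARE). It was searched as TGATGNAA on both strands in the 250 bases before each transcription start listed by RefSeq (GRCh38.p14), a window that 33 of the 39 genes had. The element was present for 6 of these 33 genes (18.2%) and for 3.89% of all 27305 genes with a window. The list includes genes chosen because ATF4 is known to control them, so a larger share can follow from that choice. The shares are given as a description. A gene can have several windows. Counted by window, the element was in 6 of the 50 windows of these genes and in 3.14% of all 35116 windows. The 6 genes were CHAC1, ASNS, ATF3, JDP2 and CEBPG, which were higher with MFAP5, and PPP1R15B, which was not called. ASNS, ATF3, JDP2 and CEBPG also had windows without a match. The cyclic AMP response element TGACGTCA, which reads the same on both strands, was present for 1 gene, PPP1R15A (3.03%, against 2.03% of all genes). Most genes that were higher, DDIT3, TRIB3 and GDF15 among them, had no match to either in this window, which says only that these letters are not in it.
Whole windows are shown for CHAC1 and ASNS, which were higher, and for PPP1R15B, which was not called, 5' to 3' on the strand of the gene and ending at the base before the start, with the matched element in capitals.
CHAC1 (chr15:40953221-40953470, plus strand, matched on the opposite strand): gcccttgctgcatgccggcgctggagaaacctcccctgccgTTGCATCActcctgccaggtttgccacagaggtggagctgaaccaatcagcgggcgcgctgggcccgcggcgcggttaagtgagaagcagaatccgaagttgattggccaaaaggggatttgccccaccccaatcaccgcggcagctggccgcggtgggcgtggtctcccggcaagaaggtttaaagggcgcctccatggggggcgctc
ASNS (chr7:97872409-97872658, minus strand): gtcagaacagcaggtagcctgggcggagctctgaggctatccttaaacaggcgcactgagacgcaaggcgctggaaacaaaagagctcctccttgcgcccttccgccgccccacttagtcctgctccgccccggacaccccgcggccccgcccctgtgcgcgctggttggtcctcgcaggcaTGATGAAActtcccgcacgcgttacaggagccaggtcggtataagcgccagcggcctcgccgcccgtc
PPP1R15B (chr1:204411818-204412067, minus strand): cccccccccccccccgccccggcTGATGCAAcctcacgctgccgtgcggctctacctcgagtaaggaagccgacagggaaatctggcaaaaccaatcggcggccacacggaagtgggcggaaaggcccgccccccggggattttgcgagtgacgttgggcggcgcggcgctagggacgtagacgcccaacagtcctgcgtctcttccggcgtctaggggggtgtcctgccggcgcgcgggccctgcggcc
The element began 209 bases before the start in CHAC1, 68 in ASNS and 227 in PPP1R15B. In the others only the site itself is shown, with 8 bases on each side.
JDP2: gccggggcTGATGCAAcccgtccc
CEBPG: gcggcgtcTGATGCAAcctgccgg
ATF3: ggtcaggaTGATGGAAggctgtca
PPP1R15B, JDP2 and CEBPG share the same 8 letters, TGATGCAA, and CHAC1 has their reverse complement, while ASNS and ATF3 differ at the free position. The log2 fold change was 1.53 for CHAC1, 1.28 for ATF3, 0.57 for JDP2, 0.54 for ASNS, 0.30 for CEBPG and 0.25 for PPP1R15B.

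The IRE1 and ATF6 arms of the unfolded protein response, which run beside PERK in the endoplasmic reticulum, had 17 of 22 tested genes higher, 1 lower and 4 not called, with a median log2 fold change of 0.36. Over all genes, 14.6% were higher and 15.3% lower. DNAJB9, a chaperone of the lumen, was 1.74-fold higher (1545 ± 99.4 with MFAP5 and 893 ± 147 in controls, SD, n = 3 each, limma adjusted p = 0.00102). XBP1, the transcription factor spliced by IRE1, was 1.65-fold higher (6801 ± 856 with MFAP5 and 4102 ± 391 in controls, limma adjusted p = 0.000607). ATF6 itself was 1.59-fold higher (810.3 ± 22.8 with MFAP5 and 509.6 ± 36.2 in controls, limma adjusted p = 0.000746). MBTPS2, the protease that releases ATF6, was the gene called lower (log2 fold change -0.27, limma adjusted p = 0.0408), a call lost in 8 of 17 alternatives, among them the fits without MFAP5 replicate 2 or 3 and without control replicate 2 or 3. The number higher was 10 with arrays centred on their medians, 7 with centring on hybridisation controls and 11 without an intensity trend. Of all probe sets, 8.43%, 7.03% and 11.2% were higher in these settings, in that order, against 13.5% as reported.

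Of the amino acid transporters under ATF4 control, 7 of 10 tested were higher and none lower, also at an unadjusted limma p below 0.05. Over all 12216 genes 14.6% were called higher and 15.3% lower, and 2666 genes were lower at that unadjusted p. SLC7A11, the cystine transporter, was 2.87-fold higher (637 ± 18.5 with MFAP5 and 223 ± 34.6 in controls, SD, n = 3 each, limma adjusted p = 3.79e-05). SLC36A4 was 1.49-fold higher (limma adjusted p = 0.00125) and SLC38A1 1.44-fold (adjusted p = 0.000151). The number higher was 4 with centring on hybridisation controls, where 7.03% of all probe sets were higher. Of the 7 serine and one-carbon enzymes tested, 0 were called by limma, and 0 had an unadjusted p below 0.05. With arrays centred on their medians 3 were called lower, where 21.9% of all probe sets were lower, and without MFAP5 replicate 1 there was 1 called higher. Their log2 fold changes ran from -0.17 to 0.40, and PHGDH, the entry enzyme of serine synthesis, had a signal of 5951 ± 535 with MFAP5 and 5625 ± 332 in controls (SD, n = 3 each).

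Cytosolic aminoacyl-tRNA synthetases, which load tRNAs with amino acids, had 4 of 17 tested genes higher and 3 lower, where 14.6% of all genes were higher and 15.3% lower. The counts were 1 higher and 6 lower with arrays centred on their medians, 1 higher with centring on hybridisation controls or without an intensity trend, and 2 higher without MFAP5 replicate 2, MFAP5 replicate 3 or control replicate 1. Of all probe sets, 8.43% were higher and 21.9% lower with centring on medians. With centring on hybridisation controls 7.03% were higher, and without an intensity trend 11.2%. The share higher was 9.22% without MFAP5 replicate 2, 10.3% without MFAP5 replicate 3 and 10.5% without control replicate 1. AARS1, for alanine, was 1.37-fold higher (limma adjusted p = 0.00203). FARSB, a subunit for phenylalanine, was 1.48-fold lower (limma adjusted p = 0.00128), HARS1, for histidine, 1.39-fold lower (adjusted p = 0.000469) and RARS1, for arginine, 1.2-fold lower (adjusted p = 0.0227, a call lost in 6 of 17 alternatives, including the fits without MFAP5 replicate 2 or 3 and without control replicate 1 or 2). Of 19 other eIF2 factors and regulators of the kinases, 6 were lower and 1 higher. EIF2S3, the gamma subunit of eIF2, was 1.33-fold lower (limma adjusted p = 0.00649), and TARBP2, a partner of PKR, 1.25-fold lower (adjusted p = 0.0286, a call lost in the same 6 settings). DNAJC3, an inhibitor of PERK and PKR that also stands in the list of the IRE1 and ATF6 arms, was 1.22-fold higher (limma adjusted p = 0.0133), but not without control replicate 2 and in 3 other alternatives. The number lower in this group was 11 with arrays centred on their medians, where 21.9% of all probe sets were lower, and 1 with centring on hybridisation controls or without an intensity trend. It was 3 without a brightness filter or without MFAP5 replicate 1, and 2 without MFAP5 replicate 2 or without control replicate 1. The share of all probe sets called lower, 11.8% as reported, fell in these settings too. It was 7.36% with centring on hybridisation controls, 8.06% without an intensity trend and 4.62% without a brightness filter. Without MFAP5 replicate 1 it was 10.2%, without MFAP5 replicate 2 7.74% and without control replicate 1 7.87%.

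**Figure D5:**
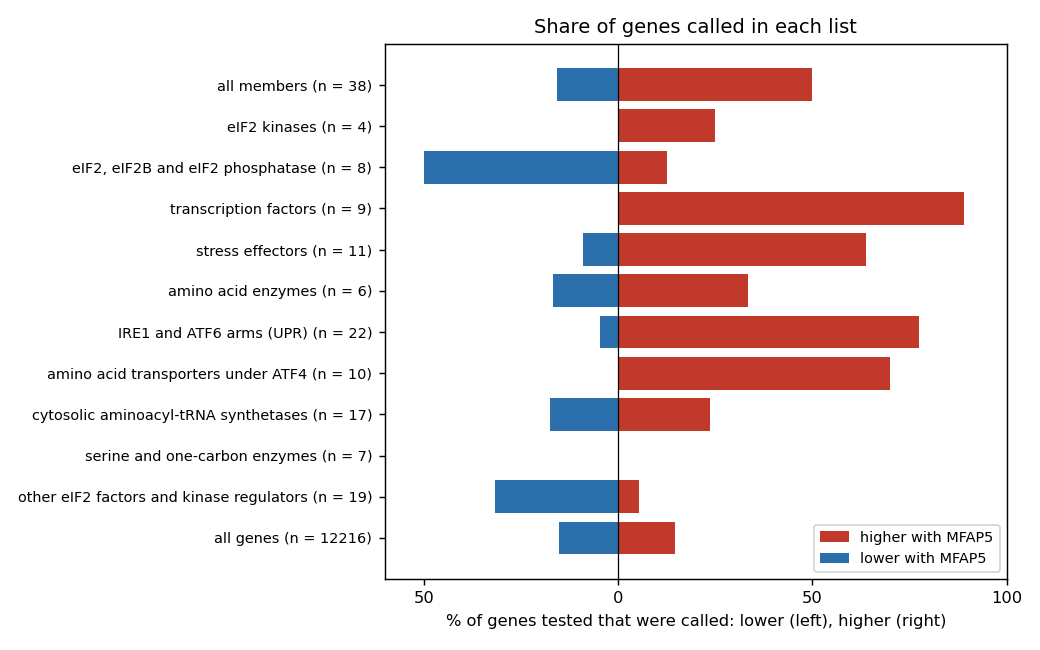
Share of tested genes called lower (left, blue) and higher (right, red) with MFAP5 in each list, with the number tested in brackets; the comparison is 3 MFAP5 against 3 control arrays. Transcription factors, the IRE1 and ATF6 arms and amino acid transporters lie mostly to the right, and the group of eIF2, eIF2B and phosphatase genes mostly to the left.

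GDF15, GADD45A and SESN2 are also known targets of p53, and TXNIP and KLHL24 of MondoA or FOXO factors. Of 16 other p53 targets tested, 6 were higher and 2 lower with MFAP5, where 14.6% of all genes were higher and 15.3% lower. With arrays centred on their medians 5 were higher and 5 lower. A filter at the 75% quantile left 11 of these genes, 1 of them lower. Of all probe sets, 8.43% were higher and 21.9% lower with that centring, and 20.7% were lower with that filter. PLK3 was 2.62-fold higher (limma adjusted p = 0.00689) and ZMAT3 2.21-fold higher (adjusted p = 3.21e-06), while FAS, which encodes a death receptor, was 2.16-fold lower (adjusted p = 0.00172) and DDB2 1.43-fold lower (adjusted p = 0.00365). Of 13 other MondoA and FOXO genes tested, 5 were higher and 1 lower. The number higher was 3 with centring on array medians or on hybridisation controls and without MFAP5 replicate 2. It was also 3 with a filter at the 75% quantile, which left 8 of these genes. Of all probe sets, 8.43%, 7.03%, 9.22% and 17.7% were higher in these settings, in that order. The number lower was 2 with centring on array medians and without control replicate 1, where 21.9% and 7.87% of all probe sets were lower. FOXO1 was 1.83-fold higher (limma adjusted p = 0.00179), FOXO4 1.77-fold (adjusted p = 0.0399, a call lost in 8 of 16 alternatives, including the fits without MFAP5 replicate 2 or 3 and without control replicate 1 or 2) and IRS2 1.66-fold (adjusted p = 4.5e-05), and thioredoxin, TXN, which TXNIP binds, was 1.41-fold lower (adjusted p = 0.000499). The part of these factors in the changes of GDF15, GADD45A and TXNIP was not tested.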

How the data were processed

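RNA of OVCA432 cells was hybridised to Affymetrix U133 Plus 2.0 arrays, 3 with MFAP5 and 3 controls, described in the series' design as independent samples. The authors deposited 1 intensity per probe set on a linear scale, made with MAS5, per the submitters' processing notes; its version is not given in the sources used here. Of 54675 probe sets, 62 Affymetrix controls were left out of the tests, 41091 carried 1 gene symbol and 1801 several. Log2 signals were tested with limma 3.58.1 in R 4.3.3 (lmFit, and eBayes with an intensity trend, two-sided, Benjamini-Hochberg adjustment). Tested were the 27307 probe sets whose mean log2 signal reached the median, a signal of 53.68. The number of arrays limits the precision. The script was tested on simulated data.

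The genes and all other lists were chosen with earlier results of these data known. All listed genes are described. From each other list the text names the 3 called genes with the largest absolute log2 fold change, and up to 3 called genes against the majority of their list; EPCAM and PHGDH were named after their values were seen. Promoter windows came from RefSeq, which had none for EIF2AK1, NUPR1, GADD45A, EIF4EBP1, PYCR1 and GPT2 in the table used. Alternatives covered normalization, pseudocounts, filters, the eBayes settings, a replicate block, the probe set used and each array left out.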

Additional observations from a re-analysis of the deposited data

How the results depend on the processing

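Of 25 called genes in the list, 14 kept their call in every alternative in which they were tested. Not every gene was tested in each. The filter at the 75% quantile left 33 of the 38 genes, without GDF15 and CHAC1. The mean of all probe sets was tested for 37 genes and the brightest probe set of the _at type for 34. Across genes and settings, 656 values stayed on their side of the threshold, 45 lost the call and 8 gained it. Of the 656, 14 values of 6 genes changed sign without a call in either fit. In 3 further cases a sign change touched a call: EIF2S1, at 0.088 with the mean of its probe sets and 0.37 with its brightest probe set of the _at type, and ATF5, at 0.88 with the mean of its probe sets; these use other probe sets. Centring on array medians gave 2302 probe sets higher and 5975 lower, against 3679 and 3209 as reported. Centring on hybridisation controls gave 3931 called probe sets, 1920 higher and 2011 lower, and 18 called genes of the list. A filter at the 75% quantile left 2422 higher, with fewer probe sets tested. Of those 13654 probe sets 17.7% were higher and 20.7% lower, against 13.5% and 11.8% as reported, so the share called was larger among bright probe sets. The list then had 15 genes higher and 7 lower of 33. Leaving out 1 array gave 2518 to 3561 probe sets higher and 2114 to 3114 lower, and 20 to 24 called genes of the list; the lowest count lower came without MFAP5 replicate 2. Centring on the medians of the tested probe sets was chosen after seeing the data.

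Arrays of the 2 groups share replicate numbers, but the deviations of same-numbered arrays correlated at 0.089, -0.0071 and 0.17, and MFAP5 replicate 1 correlated best with control replicate 2 (0.10), so the numbers were not taken to pair the samples. With a replicate block, 7988 probe sets were called, 4214 higher and 3774 lower, and 27 genes of the list, 20 higher and 7 lower, with EIF2B1 (limma adjusted p = 0.0317) and PPP1R15B (0.0418) added; of the serine and one-carbon enzymes, 1 was then called higher. Signals near background limit the dim probe sets, such as the untested ones of GDF15, ATF5 and ASNS.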
